A study of Homo sapiens with 42 samples.

Results

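MM.1S is an established human multiple myeloma cell line, a cancer of antibody-secreting plasma cells. Alternative splicing was compared between 3 libraries of MM.1S cells with a guide RNA against ELL2 (sgELL2) and 3 libraries with a guide RNA against EGFP (sgEGFP), a gene that human cells do not carry. They are 6 of 42 libraries in 14 groups. All 2823 events of the deposited table of this comparison were taken, out of 168483 event entries in all 8 tables of the series. All cells of both groups expressed Cas9, received their guide by lentivirus, were selected in puromycin for 2 days and were kept with interleukin-6 (IL-6), a plasma cell growth factor, for 24 h. The sources used here do not give the sequence of the guides, the number of guides per gene or whether clones or pools were used. Nothing in the labels says that replicate libraries were separate cultures, so p-values cover the library-to-library spread alone, and that spread may be technical. The labels call such cells knockdown cells, and PSI does not measure how much ELL2 RNA or protein was left.

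ELL2 encodes an elongation factor of RNA polymerase II. It is part of the super elongation complex, which brings the kinase P-TEFb to paused polymerase, and in plasma cells it is known for promoting the use of the secretory-specific poly(A) site of the immunoglobulin heavy chain gene, together with skipping of an alternative splice site there. Splicing occurs while the polymerase moves along the gene, and elongation factors can change which exons are kept. Percent spliced in (PSI) is the share of transcripts, in percent, that keep the exon or intron of an event or use its splice site. Differences are in points of PSI, sgELL2 minus sgEGFP. The events are single skipped exons, runs of skipped exons, mutually exclusive exons, alternative 5' and 3' splice sites, retained introns (also those in overlapping regions) and 2 classes tagged TSS|A5SS and TSS|A3SS in the table.

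The first events to read are those of ELL2 itself, on the minus strand of chromosome 5, since they check the labels. The sequences below are the last 15 bases of ELL2 exon 2 (chr5:95943002-95943049, lower case) joined to the first 15 bases of the next exon used (capitals), from the GENCODE release 29 transcripts on GRCh38. They show the annotated junction with exon 3 (chr5:95919424-95919545) and the junctions that form when exon 3 and exon 4 (chr5:95913771-95913934), or these and exon 5 (chr5:95906523-95906782), are left out.
ELL2 exon 2 to exon 3: caaggactccacgggCTTGTCAAAATTCCC
ELL2 exon 2 to exon 5: caaggactccacgggGGAAAAGAGTGCAAA
ELL2 exon 2 to exon 6: caaggactccacgggGTAGCCAATCTGAAT
All 3 exons are coding over their whole length, 122, 164 and 260 bases. Leaving out exons 3 and 4 removes 286 bases, which is not a multiple of 3, and leaving out exons 3 to 5 removes 546, which is.

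ELL2 exons were kept less often in sgELL2 cells. PSI of exon 4 was 57.0, 63.0 and 63.7 in the sgELL2 libraries, against 88.1, 85.6 and 99.8 in the sgEGFP libraries, a difference of -29.98 points. PSI of exon 3, in an event with the same outer ends, was 60.4, 65.4 and 58.3 in sgELL2 cells and 81.8, 80.1 and 95.5 in sgEGFP cells. The groups did not overlap for either exon, and the sgEGFP library listed last lay above its 2 partners in both. Exon 5 averaged 70.4% ± 5.5 in sgELL2 cells and 84.4% ± 0.56 in sgEGFP cells (SD, n = 3 each). An event listed as an alternative 5' splice site has the interval between exons 2 and 5 as its region. Its listed segment (chr5:95919424-95943002) runs from the last base of exon 2 to the last base of exon 3. The sources used here do not say which of these 2 splice sites its PSI counts. This event was 14.1, 15.1 and 12.1 in sgELL2 libraries and 0.725, 0.352 and 0.763 in sgEGFP libraries. No library of sgEGFP cells reached 1%, and it is 1 of 2 events of at least 10 points with an adjusted p under 0.05 in limma when the spread came from the complete sgSRSF1 table (adjusted p = 0.0287 over its number of events). PSI was clipped at 1 and 99% before that fit, so all 3 sgEGFP libraries entered it at 1%, with no spread between them. The event did not pass when the deposited p was adjusted over that number. A further exon 3 event tagged as a target of nonsense-mediated decay (NMD) averaged 41.6% ± 0.71 in sgELL2 cells and 49.99% ± 2.7 in sgEGFP cells, a difference under 10 points. These events share exons and reads and are not separate observations of one another.

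The table holds only events whose deposited p was under 0.05. The tables of sgSRSF1 and sgHNRNPL in the same line appear to list all events of their own comparisons and are called complete here. The first has 58062 events with a p, of which 5% are 2903. It lacks 822 of the 2823 events listed for sgELL2, 29.1%. The number 58062 therefore stands in for the number tested with sgELL2, which is unknown. Fewer, 2823, are listed here. The column is headed as a Benjamini-Hochberg FDR, but its values are unadjusted 2-sample p-values recomputable from the listed PSI in 2823 of 2823 events. Adjusted by Benjamini-Hochberg over 58062 events, 0 events stayed under 0.05, against 2823 at an unadjusted p under 0.05, and the smallest adjusted value was 0.136. limma on logit PSI, adjusted over the same number, left 9 events of at least 10 points, and 2 when its spread came from the complete sgSRSF1 table. An exact permutation test of 3 against 3 libraries cannot go below 0.1. Below, an event is called with a deposited p under 0.05 and a difference of 10 points or more in PSI. Called events are therefore a description of these 6 libraries, and how many of them chance gives was not tested. "Rose" and "fell" are used of called events only. No read numbers are listed, so the depth behind a PSI is unknown. Events of 10 of 10 plasma cell and myeloma marker genes, among them SDC1, IRF4, XBP1 and TNFRSF17, and of 1 of 10 markers of mature B, T and myeloid cells (CD3E) were measured in the complete MM.1S tables. PSI cannot say at what level any of them was expressed.

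Called events numbered 310 in 256 genes, 11% of the listed events. Set against the 58062 events of the sgSRSF1 table, in which 136 of the 310 were not found, they are 0.534%. They split almost evenly, 149 higher in sgELL2 cells (5.28% of listed events) and 161 lower (5.7%). The median size was 13.81 points, and 48 events reached 20 points, 24 in each direction. The median SD of a called event was 3.8 points in sgELL2 cells and 3.82 in sgEGFP cells. The libraries of the groups did not overlap in 310 of 310, which the choice by p and size fixes. Most listed events were small: 2025, or 71.7%, differed by under 5 points, and the median over all listed events was 0.02 points. Some events repeat the same values under different coordinates, and the 310 called events hold 298 distinct sets of values. Just inside the limit of 10 points were IGFLR1 (-10.02) and CEACAM21 (10.04), and just outside it TRAM2-AS1 and ATXN3 (both 9.93).

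Events of all 9 types went both ways. Of 90 called single exons 39 rose and 51 fell, and of 55 called exon runs 31 rose and 24 fell. There were 17 rises and 14 falls among alternative 5' splice sites, and 17 rises and 20 falls among 3' ones. Retained introns rose in 14 and fell in 19, and those in overlapping regions rose in 12 and fell in 13. TSS|A5SS events rose in 9 and fell in 6, TSS|A3SS events rose in 7 and fell in 10, and mutually exclusive exons rose in 3 and fell in 4. The type with the most listed events after single exons was the retained intron, 691 of 2823, but only 33 of these, 4.78%, were called. The share was 11% over all types, 18.0% for exon runs and 18.9% for TSS|A3SS events. It was highest, 22.6%, for mutually exclusive exons, of which only 31 were listed.

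**Figure D1:**
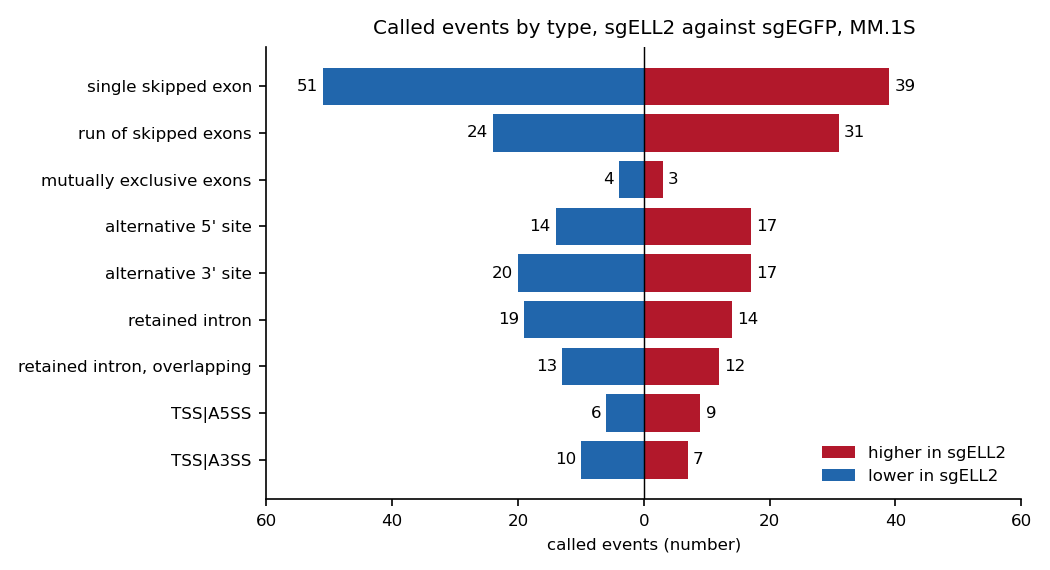
Number of called events (horizontal axis, events) of each type, to the right those higher and to the left those lower in sgELL2 than in sgEGFP MM.1S cells. All 9 types have bars on both sides, from 39 up and 51 down for single exons to 3 up and 4 down for mutually exclusive exons.

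Among called events with all 6 values the largest rises were in MAP2K6, DYRK1B, MAPRE3, ACAD10 and ZSCAN21; PCED1A, with 5 values, rose by 32.09 points. An alternative 5' splice site of MAP2K6 (chr17:69516904-69517297, no overlap with coding sequence), which encodes a kinase upstream of p38, was 55.0, 40.7 and 68.8 in sgELL2 libraries, against 15.4, 8.33 and 0 in sgEGFP libraries. The difference of 46.92 points was the largest of the table, with an SD of 14.0 points in sgELL2 cells and 7.7 in sgEGFP cells. An 84-base intron of DYRK1B, a protein kinase gene, at chr19:39826868-39826951 was retained at 53.8, 57.1 and 57.1 in sgELL2 cells and 20, 20 and 29.4 in sgEGFP cells. It overlaps coding sequence, and its sgELL2 libraries had an SD of 1.9 points. A 45-base alternative 5' segment of MAPRE3, which encodes a microtubule plus-end protein, averaged 72.0% ± 4.7 in sgELL2 cells and 44.7% ± 9.5 in sgEGFP cells (SD, n = 3 each). ACAD10, an acyl-CoA dehydrogenase family gene, rose in 4 events over 3 coding exons. Its 160-base exon was 88.2, 100 and 100 in sgELL2 libraries and 64.3, 70.3 and 72.1 in sgEGFP libraries, and the other 3 events rose by 13.88 to 26.12 points.

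Further rises of over 20 points among the 12 were as follows. A noncoding or UTR exon of ZSCAN21, a zinc finger gene, averaged 69.98% ± 10.3 in sgELL2 cells and 43.1% ± 3.9 in sgEGFP cells, and a 140-base coding exon of ZNF133, also a zinc finger gene, 77.6% ± 6.8 in sgELL2 cells and 53.6% ± 8.8 in sgEGFP cells. A 77-base coding exon of IFT22, a protein of transport inside cilia, was 73.6, 86.9 and 71.0 in sgELL2 libraries and 52.6, 60.9 and 45.8 in sgEGFP libraries. An 88-base exon of DCAF11, a substrate adaptor of a ubiquitin ligase, averaged 83.7% ± 6.8 in sgELL2 cells and 60.8% ± 1.6 in sgEGFP cells, and a neighbouring 11-base exon averaged 98.0% ± 3.4 in sgELL2 cells and 80.4% ± 5.2 in sgEGFP cells. A TRIM62 intron of 572 bases averaged 49.9% ± 4.0 in sgELL2 cells and 28.4% ± 3.2 in sgEGFP cells. TTC28-AS1, a long noncoding RNA, retained an interval at 58.5% ± 9.9 in sgELL2 cells and 36.4% ± 7.7 in sgEGFP cells. CCDC82 rose in 3 events over 2 exons annotated as noncoding or UTR. Its event among the 12 rose by 21.94 points, at an 84-base exon (chr11:96387530-96387613). The tightest of the 3 events was a different one at the same exon, with a smaller rise. It was 100, 99.3 and 100 in sgELL2 libraries and 88.5, 86.7 and 87.1 in sgEGFP libraries. That event and the ELL2 alternative 5' splice site event are the 2 that passed limma with the spread of the complete table (adjusted p = 0.0287 for each).

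The largest called fall, at an exon of the noncoding ENSG00000290600, rests on 2 libraries per group, with 2.86 and 2.56 in sgELL2 libraries and 34.5 and 33.3 in sgEGFP libraries. Among called events with all 6 values the largest falls after ELL2 exon 4 included retained intervals of TRIM52 and splice sites of several noncoding genes. TRIM52, a ubiquitin ligase gene, had 4 overlapping called intervals that share the end base 181260000 on chromosome 5, and all 4 were lower in sgELL2 cells, with differences of -22.08 to -28.9 points. The interval that fell most was 37.3, 37.1 and 50 in sgELL2 libraries and 66.7, 83.3 and 61.1 in sgEGFP libraries. A 73-base coding exon of MORC4 averaged 58.6% ± 9.7 in sgELL2 cells and 80.7% ± 7.4 in sgEGFP cells. A TSS|A5SS event of SMIM7 averaged 51.4% ± 4.4 in sgELL2 cells and 73.2% ± 6.8 in sgEGFP cells. An alternative 5' splice site of the noncoding MFF-DT averaged 50% ± 10 in sgELL2 cells and 70.8% ± 6.5 in sgEGFP cells. IGFLR1, a cell surface receptor gene, fell in 3 overlapping events, and in the largest of them (chr19:35739710-35740088) it was 64.2, 71.3 and 56.7 in sgELL2 libraries and 77.3, 91.1 and 86.8 in sgEGFP libraries. Differences were -23.84 points at the pseudogene MRPS31P4, -24.44 at the noncoding LINC01353, -23.33 at a 158-base exon of C8orf44 and -27.34 at ENSG00000262879.

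**Figure D2:**
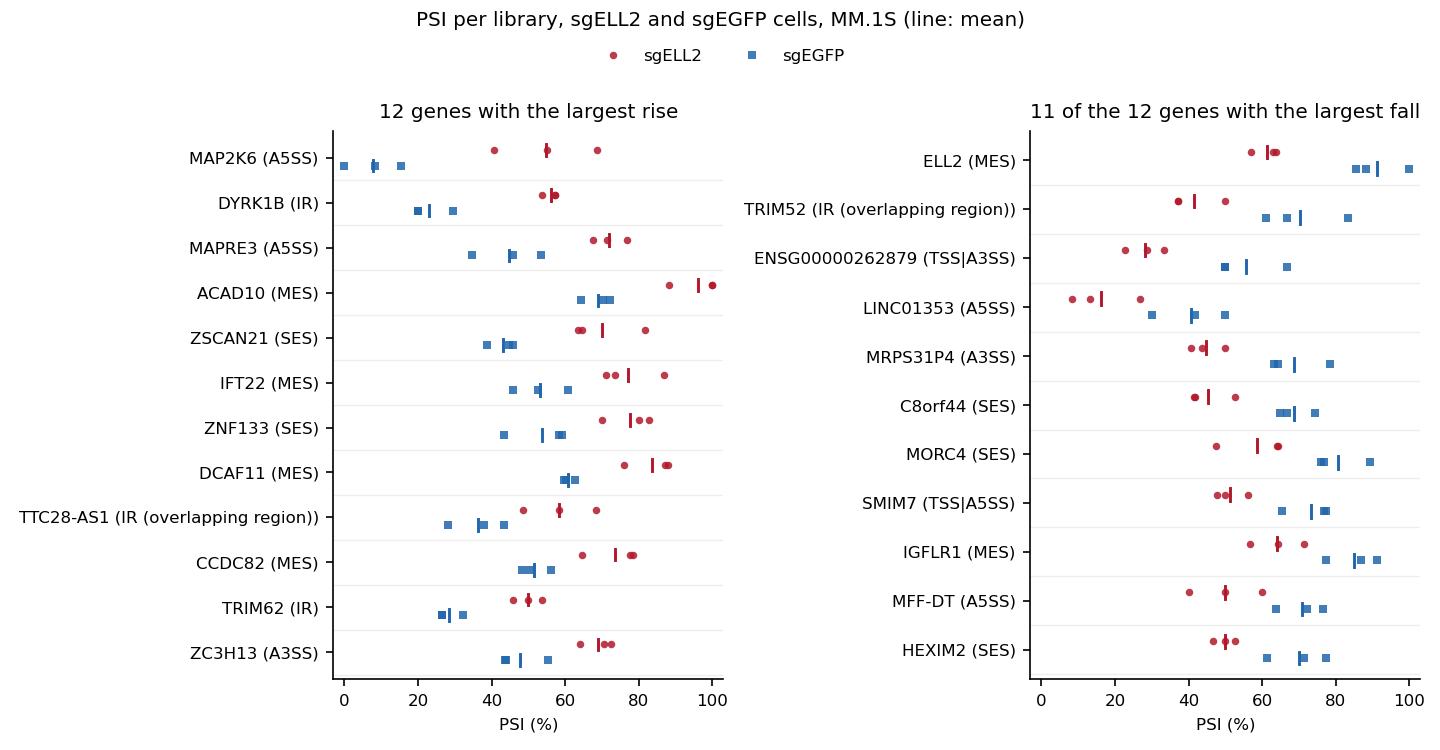
PSI in percent (horizontal axis) of each library for the 12 genes with the largest rise (left) and for 11 of the 12 with the largest fall (right), 1 event per gene with all 6 values. Red circles are sgELL2 libraries, blue squares below them sgEGFP libraries, and short lines the group means. The groups do not overlap in any event, as the choice by p and size requires, and MAP2K6 has the widest spread in sgELL2 cells, 40.7 to 68.8.

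HEXIM2, which encodes an inhibitor of P-TEFb, the kinase that the super elongation complex carries, was among the 12 genes with the largest fall in events with all 6 values. A 148-base exon outside its coding sequence (chr17:45162488-45162635) was 52.7, 50 and 46.7 in sgELL2 libraries and 77.4, 61.4 and 71.4 in sgEGFP libraries. A TSS|A5SS event in the same region rose, with 26.2, 31.2 and 33.3 in sgELL2 libraries and 14.0, 21.6 and 17.2 in sgEGFP libraries. HEXIM2 was not on the list of elongation genes and is named by the size of its fall. In 13 genes called events went both ways, and 40 genes had at least 2 called events. In ZFP1, a zinc finger gene, 2 forms of 1 exon that differ at an end moved apart: the 127-base form rose by 11.09 points and the 144-base form fell by 17.91.

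A second sgEGFP group of MM.1S with IL-6 is deposited as the control of the sgSRSF1 and sgHNRNPL tables. It was set beside sgELL2 as a comparison of levels across tables, with no test, and this was chosen after the data had been seen. Of the 310 called events 174 were found there. The sgELL2 mean lay on the same side of this other sgEGFP group in 138 of the 174, and at least 10 points away on that side in 62, which is 35.6%. For all listed events the same share was 8.6% (172 of 2001). Over the 174 events the median difference was 13 points from the own sgEGFP group and 6.18 points, taken in the same direction, from the other one. The own sgEGFP group itself lay at least 10 points beyond the other sgEGFP group, away from sgELL2, in 63 events and at least 10 points towards sgELL2 in 9. Called events were chosen by their distance from the own sgEGFP group. The sources used here do not say which of 2 providers made which library, and the part of provider or preparation in the difference was not tested.

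Several of the largest events are among those where the sgEGFP groups differ. The MAPRE3 site was at 82.6, 58.8 and 68.3 in the other sgEGFP libraries, around its sgELL2 mean of 72.0. The largest TRIM52 interval was at 57.1, 45.8 and 48.5 there, and 2 of its 3 sgELL2 libraries were below all of these. The IGFLR1 event was at 62.3, 64.5 and 68.5, around its sgELL2 mean of 64.1. The called events of MAP2K6, DYRK1B, ACAD10 and ELL2 are among those not found there.

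**Figure D3:**
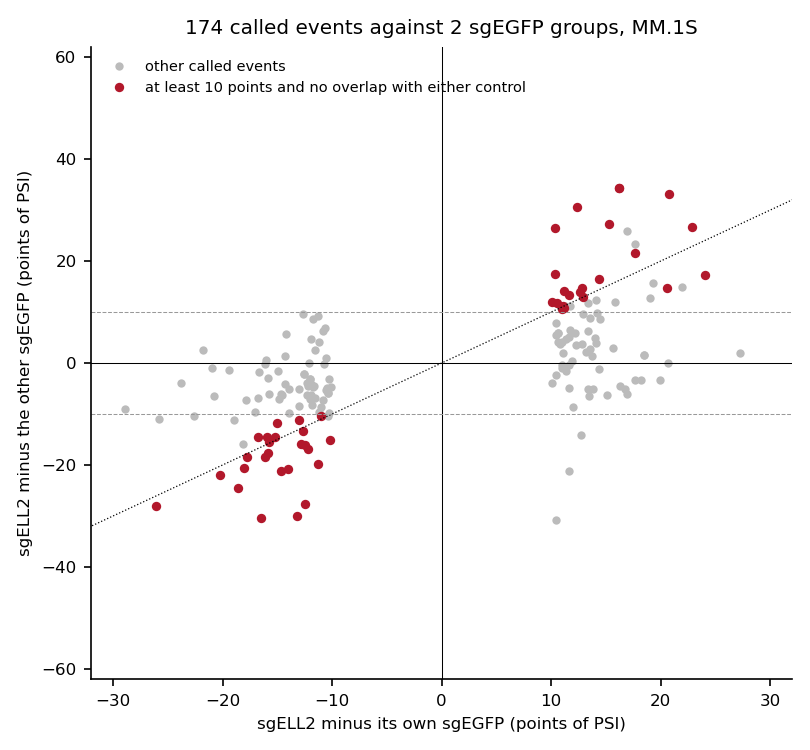
Difference in points of PSI between sgELL2 and its own sgEGFP group (horizontal axis) and between sgELL2 and the other MM.1S sgEGFP group (vertical axis) for 174 called events; the sgELL2 values are shared by both axes. Dotted line, equal differences; dashed lines, 10 points. Red points, 47 events that were at least 10 points away from both groups on the same side with no overlap of libraries; many grey points lie near 0 on the vertical axis.

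In 47 of the 174 called events found, in 42 genes, sgELL2 was at least 10 points from both sgEGFP groups, on the same side, with no overlap of libraries. Among all 2001 listed events found, 154 were that far from the other sgEGFP group without overlap, whatever their distance from the own one. Of the 47, 22 rose and 25 fell. From 43 called single exons found, the set holds 2 that rose and 13 that fell. From 41 exon runs it holds 10 that rose and 5 that fell. From 13 retained introns it holds 3 that rose and 0 that fell, and from 20 alternative 5' splice sites likewise 3 and 0. Among all called events, found there or not, 39 single exons rose and 51 fell, and 31 exon runs rose and 24 fell. How the found events of each type split by direction is not given here, so the counts above are not read as a direction of a type. The 47 events were chosen by their values, so no test is attached to them.

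Of those that rose, IFT22 was 59.6, 64.2 and 55.8 in the other sgEGFP libraries, below all 3 of its sgELL2 libraries. A 96-base coding exon of CDK5RAP2, which encodes a centrosome protein, was 75.1, 85.4 and 86.6 in sgELL2 libraries, against 66.2, 66.0 and 69.2 in its own sgEGFP libraries and 51.7, 48.4 and 65.4 in the other ones. A 121-base coding exon of BBS1, part of the complex that carries proteins to cilia, was 76.8, 76.5 and 79.5 in sgELL2 libraries, 58.7, 67.9 and 67.8 in own sgEGFP libraries and 58.1, 61.7 and 69.1 in the other ones. CEP162, which encodes a protein of centrioles, kept a 138-base coding exon at 60.7% ± 1.9 in sgELL2 cells, 49.1% ± 5.3 in own sgEGFP cells and 47.4% in the other ones. A 73-base intron of ROGDI was retained at 18.8, 17.6 and 13.3 in sgELL2 libraries, against 6.67, 0 and 0 in own sgEGFP libraries, and was 0 in all 3 other ones. SKP2, the substrate receptor of a ubiquitin ligase that marks the cell cycle inhibitor p27, had a TSS|A3SS event at 66.9, 57.9 and 60.5 in sgELL2 libraries, 43.9, 51.6 and 51.1 in own sgEGFP libraries and 51.2, 45.2 and 50 in the other ones.

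Of those that fell, a 117-base coding exon of ERCC2 (chr19:45365042-45365158), the XPD helicase of transcription factor TFIIH and of nucleotide excision repair, was 67.4, 76.1 and 68.6 in sgELL2 libraries. It was 88.2, 87.8 and 90.2 in own sgEGFP libraries and 84.8, 99.2 and 89.7 in the other ones. PXN, which encodes the focal adhesion protein paxillin, used a 102-base mutually exclusive coding exon at 4.88, 9.09 and 13.9 in sgELL2 libraries, 25.7, 24.1 and 25.6 in own sgEGFP libraries and 28.6, 35.8 and 16.1 in the other ones. A 49-base exon of KANSL2, a subunit of a histone acetyltransferase complex, averaged 59.7% ± 8.3 in sgELL2 cells, 78.3% ± 7.4 in own sgEGFP cells and 84.3% in the other ones. A 306-base coding exon of DOK3, an adaptor of B cell receptor signalling, was 76.3, 71.6 and 75.4 in sgELL2 libraries, 94.8, 85.1 and 85.5 in own sgEGFP libraries and 100, 100 and 86.0 in the other ones. The HEXIM2 exon was at 82.2, 54.3 and 78.6 in the other sgEGFP libraries and its TSS|A5SS event at 11.8, 23.5 and 13.6, so both HEXIM2 events are in this set.

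**Figure D4:**
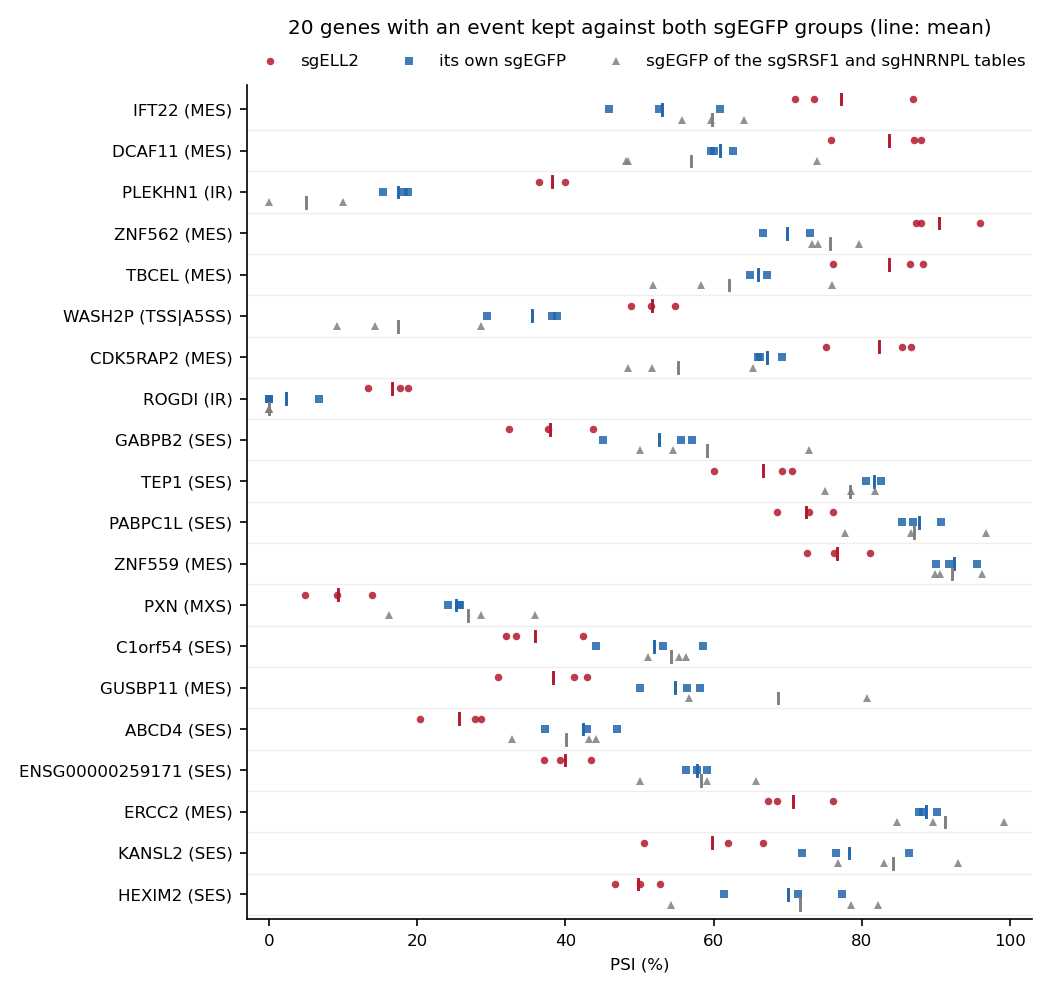
PSI in percent (horizontal axis) of each library for 20 genes of the 47-event set with large differences from the own sgEGFP group, 1 event per gene with its type in brackets (SES, single exon; MES, exon run; IR, retained intron; MXS, mutually exclusive exon). Red circles, sgELL2; blue squares, its own sgEGFP group; grey triangles, the other sgEGFP group; short lines, means. The 2 sgEGFP groups lie on the same side of sgELL2 in every row, as the choice of the set requires. They differ from each other by over 10 points in some rows, such as WASH2P (35.5% and 17.3%).

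Gene lists were read by counts, against 2.51% of 10208 measured genes with a called event and 19.4% with a listed one. Over all listed events 1416 were higher and 1407 lower in sgELL2 cells; listed events of 1 gene can share exons or values, many differ by under 1 point, and counts of direction within a list are given without a test. Of 36 measured genes of elongation and pausing 1 was called, ELL2 itself. Listed but not called were SUPT5H, a subunit of the pausing factor DSIF, with a 12-base exon at 74.9% in sgELL2 cells and 79.9% in sgEGFP cells, and AFF1, a scaffold of the super elongation complex, with a 3-base acceptor event at 90.8% and 83.3% in the same order. EAF1, a partner of ELL proteins, differed by 3.59 points. Of 28 genes of cleavage, polyadenylation and termination 0 were called and 6 listed, with differences of -1.16 to 4.58 points.

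Of 60 core spliceosome genes and regulators 21 had a listed event and 1 a called one. It was CLK4, a kinase that phosphorylates SR proteins, with an alternative 5' splice site at 73.5, 78.1 and 77.1 in sgELL2 libraries and 63.4, 67.2 and 67.2 in sgEGFP libraries, with 65.8, 41.9 and 41.5 in the other sgEGFP libraries. The call share of this list is near that of all genes. Among the 32 listed events of these genes 24 were higher in sgELL2 cells and 8 lower, with a median of 1.12 points against 0.02 over all listed events. None of 13 SR protein genes or of 25 hnRNP genes was called, with 5 and 15 listed. The largest hnRNP difference was 8.45 points, at a 9-base alternative 5' segment of PTBP3.

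In B cell and plasma cell genes 1 of 22 was called. IKZF3 encodes Aiolos, a transcription factor of B cells and a target of drugs used against myeloma. Its 126-base coding exon at chr17:39777885-39778010, in an event tagged NMD, was 30.6, 28.4 and 24.2 in sgELL2 libraries, 20.7, 13.4 and 18.1 in own sgEGFP libraries and 10.6, 8 and 12.4 in the other ones. A mutually exclusive IKZF3 exon differed by -8.09 points. JCHAIN and MZB1 were listed with small differences. Of 40 secretory pathway genes 0 were called and 9 listed, the largest differences being 7.29 points at MIA2, which acts in export from the endoplasmic reticulum, and -7.15 at the translocon gene SEC61A1.

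Of 53 genes of DNA damage response and repair 5 were called, 3 up and 2 down, beside 21 listed. An exon of the kinase gene ATR tagged NMD was 61.1, 55.8 and 62.2 in sgELL2 libraries, against 39.4, 52.7 and 44.3 in sgEGFP libraries, but the other sgEGFP libraries were at 56.4, 46.3 and 46.7. A RECQL5 intron, in a helicase gene, averaged 33.1% ± 2.2 in sgELL2 cells and 20.3% ± 4.2 in sgEGFP cells, while the other sgEGFP libraries lay between 27.2 and 33.7. RAD52 had 2 called events with 1 set of values, 17.4, 13.3 and 16.7 in sgELL2 libraries and 9.52, 5.88 and 0 in sgEGFP libraries. The kinase gene ATM fell at a retained interval, to 40.7% ± 4.3 in sgELL2 cells, against 52.2% ± 3.4 in sgEGFP cells, and ERCC2 is described above.

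Among 57 chromatin regulators 3 were called and all fell: an alternative 5' splice site of the remodeller CHD3 (-16.14 points, with 41.7, 43.1 and 35.3 in sgELL2 libraries and 25, 50 and 45.8 in the other sgEGFP libraries) and retained intervals of the demethylase KDM6A (-13 points) and the methyltransferase KMT2C (-11.25 points). KMT2C had close libraries, 32.7, 34.0 and 32.7 in sgELL2 cells and 44.4, 44.2 and 44.4 in sgEGFP cells. Of 42 cell cycle genes 2 were called. A 34-base coding exon of CDC25C, a phosphatase that starts mitosis, was at 64.4% ± 4.3 in sgELL2 cells and 76.7% ± 3.1 in sgEGFP cells, and a 75-base coding exon of the kinetochore motor CENPE at 61.2% ± 4.3 in sgELL2 cells and 71.5% ± 4.2 in sgEGFP cells. Of the 10 listed events of this list, in 7 genes, 9 were lower in sgELL2 cells, and 7 of the 10 differed by under 1 point. Of 28 apoptosis genes XIAP alone was called, up by 19.97 points at a 909-base coding exon. XIAP blocks caspases. Its 3 other sgEGFP libraries were at 88.6, 88.2 and 93.7, and its sgELL2 libraries at 81.6, 82.1 and 96.8, so this rise is present against the own sgEGFP group (71.4, 66.7 and 62.5) and not against the other one. The initiator caspase gene CASP10 differed by 9.54 points, and 9 of the 10 listed apoptosis events were higher in sgELL2 cells.

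Of 19 measured genes of IL-6 and JAK-STAT signalling 0 were called and 8 were listed. All cells had IL-6, so this list asks whether the pathway's own transcripts differed. Of its 14 listed events 10 were lower in sgELL2 cells, with a median of -4.89 points. A 90-base exon of the adaptor GAB1 was at 11.2% in sgELL2 cells and 20.7% in sgEGFP cells, 3 exon events of the phosphatase gene PTPN6 differed by -6.11 to -8.23 points, and a 157-base exon of STAT5B was at 87.1% and 93.3%. Of 33 genes of nonsense-mediated decay and RNA turnover 0 were called and 8 listed, between -5.61 and 2.72 points.

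Called events differed from listed ones in level and in kind. The median sgEGFP PSI was 47.2% over called events, 10.1% over listed ones and 5.14% over the complete sgSRSF1 table, and a minimum of 10 points favours middle levels. Events in protein-coding genes made up 79.7% of called and 90.6% of listed events. Single exons had a median length of 126.5 bases when called, 117 when listed and 116 in the complete table. Events tagged NMD made up 6.13% of called events, 9.56% of listed and 11.2% of complete-table events, and of the 19 called 10 rose and 9 fell. A 257-base exon of TBCEL, a tubulin-binding protein gene, and a 299-base exon of C16orf86 were among those that rose, while GRIPAP1 (-22.24 points) and 2 forms of 1 exon of the peroxisomal transporter family gene ABCD4 (-15.94 and -16.76 points) fell. Retained introns had a median length of 246 bases when called and 318 when listed.

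Alternative 3' splice sites 3 bases apart were 11 of 37 called sites, 29.7%, against 14.8% of listed and 10.5% of complete-table sites. At such tandem acceptors the exon starts either right after the first AG or 3 bases later, after a second one. With the TSS|A3SS class, 14 called events had a listed segment of 3 bases, and all 14 matched an exon start in GENCODE release 29. The segment ended in AG in 14 of 14 (CAG in 8, TAG in 4 and AAG in 2), as it did in 99.7% of 962 matched sites of the complete table, a share that acceptor sites fix beforehand. TAG was the triplet in 4 of 14 called sites, in 7 of 50 listed sites and in 106 of 962 of the complete table, and no test of these counts was made. For 5 of them, chosen for their protein-coding genes, the sequence is shown with the last 12 bases of the exon before, the 3 listed bases in capitals, and the next 12 bases of the longer form, as spliced RNA in DNA letters on GRCh38. ZC3H13 and MIGA1 rose and the others fell.
ZC3H13, minus strand, chr13:46045514-46045516: cctagcggcctgTAGtacaaaatgtca
MIGA1, plus strand, chr1:77873001-77873003: caacagatgaagCAGatcccagatgga
TAF1, plus strand, chrX:71397253-71397255: gaatgctactggCAGcaggctcagcag
TFDP2, minus strand, chr3:141974192-141974194: gctgctgattcgCAGgcttatgatcag
MARF1, minus strand, chr16:15623124-15623126: ttggtcttctagCAGgagtatgtctcc
The sources used here do not say which of the 2 acceptors the PSI counts. MARF1, an RNA-binding endonuclease gene, was 11.8, 12.5 and 16.0 in sgELL2 libraries and 29.4, 31.0 and 33.3 in sgEGFP libraries, with 16.1, 25.7 and 20 in the other sgEGFP libraries. TFDP2, a dimer partner of E2F factors, was 23.8, 17.4 and 24.3 in sgELL2 libraries and 42.3, 40 and 33.3 in sgEGFP libraries, with 20.8, 14.3 and 35.5 in the other ones. ZC3H13, part of the complex that writes m6A on RNA, averaged 69.0% ± 4.4 in sgELL2 cells and 47.7% ± 6.6 in sgEGFP cells. MIGA1, a mitochondrial outer membrane protein gene, averaged 33.4% and 21.6% in the same order. TAF1, the largest subunit of transcription factor TFIID, was 87.0, 90.6 and 84.9 in sgELL2 libraries and 97.2, 96.2 and 100 in sgEGFP libraries.

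INA-6, a second myeloma line, was also given sgELL2 or sgEGFP and kept with IL-6, 3 libraries each. In its table the value columns are headed MM.1S while the table name and other headers say INA-6, and it was taken as INA-6. Of the 2823 MM.1S events 216 were listed there, 200 of them with p under 0.05 in both lines (7.08% of the MM.1S events and 5.56% of those in INA-6). Of the 200, 157 differed in the same direction and 43 in opposite directions. Some of the 200 are overlapping entries of 1 gene, such as those of RPS24, RACK1 and RPL13, and each entry was counted. Of the 310 called events 17 were found, and 8 of these were also called in INA-6, all 8 in the same direction, 2 of them in ELL2. The background was 10.2% of INA-6 events with a p, at all PSI levels and not matched to the called events. The ELL2 alternative 5' splice site event averaged 15.9% ± 0.84 in sgELL2 cells and 0.0808% ± 0.081 in sgEGFP cells in INA-6, close to its levels in MM.1S.

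The 6 shared calls outside ELL2 were in 5 genes. A 299-base coding exon of C16orf86 averaged 79.0% ± 1.4 in sgELL2 cells and 62.1% ± 3.5 in sgEGFP cells in MM.1S (SD, n = 2 and 3), and 66.8% ± 4.5 and 49.6% ± 7.0 in INA-6. The SKP2 event was at 61.8% ± 4.6 in sgELL2 cells and 48.9% ± 4.3 in sgEGFP cells in MM.1S, and at 67.5% ± 2.0 and 56.0% ± 2.4 in INA-6. GATAD2A encodes a subunit of the NuRD complex, and its 5' splice site event fell by 11.75 points in MM.1S and differed by -13.14 in INA-6. The IGFLR1 event at chr19:35739710-35740088 fell by 20.99 points in MM.1S and differed by -12.28 in INA-6. Overlapping intervals of DNHD1, a dynein-related gene, rose by 10.98 and 10.34 points in MM.1S and by 20.22 and 16.89 in INA-6. SKP2 was the only 1 of these 5 genes in the 47-event set; the other MM.1S sgEGFP libraries were at 63.5, 79.6 and 16.3 for C16orf86, at 51.1, 49.2 and 60.7 for GATAD2A and at 69.2, 95.7 and 52.4 for a DNHD1 interval.

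**Figure D5:**
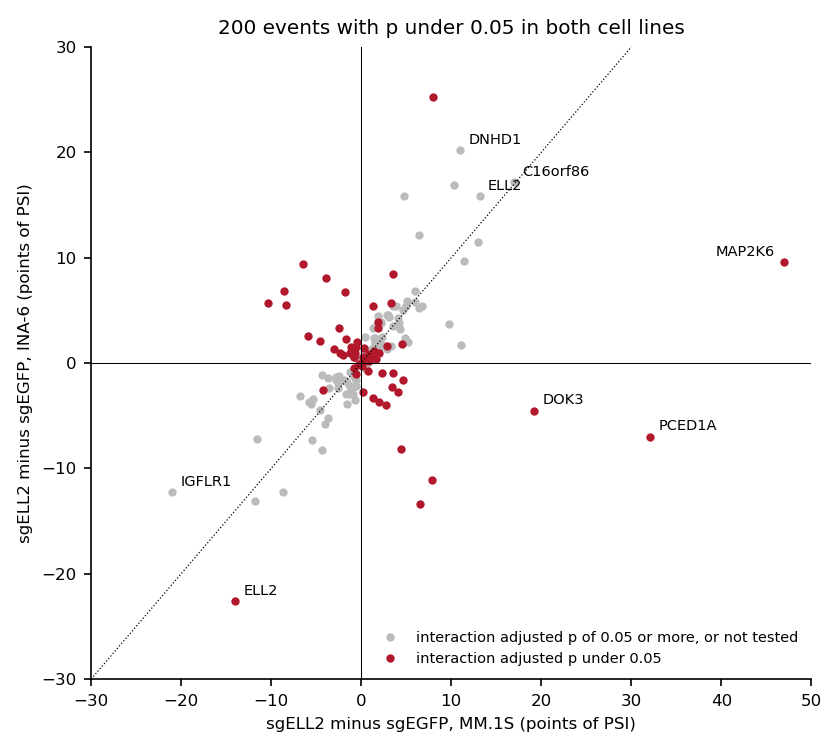
Difference sgELL2 minus sgEGFP in points of PSI in MM.1S (horizontal axis) and INA-6 (vertical axis) for the 200 events with p under 0.05 in both lines. Red, limma interaction adjusted p under 0.05; dotted line, equal differences. Of the 200, 157 lie in the same-sign quadrants; MAP2K6 lies far to the right at 46.92 and 9.55 points, and PCED1A and DOK3 have opposite signs.

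The difference of the sgELL2 effect between the lines was tested by the interaction term in limma on logit PSI. It was under an adjusted p of 0.05 in 77 of 195 events that could be fitted, 39.5%. Of the 77, 34 had the same sign in both lines. The other 43 had opposite signs or, as at the 11-base DCAF11 exon, a difference of 0 in INA-6. All events fitted were chosen for p under 0.05 in each line or, in INA-6, for having no p. Where the signs are opposite, that choice favours a small interaction p, so the share of 39.5% describes the chosen events only. Of 17 called events 6 passed. MAP2K6 rose by 46.92 points in MM.1S and differed by 9.55 in INA-6, where it was at 76.3% ± 1.3 in sgELL2 cells and 66.7% ± 0.95 in sgEGFP cells. An alternative 3' splice site of PCED1A rose by 32.09 points in MM.1S and differed by -6.98 in INA-6, and the TSS|A3SS event of DOK3 rose by 19.23 and differed by -4.51. The TAF1 acceptor fell by 10.31 points in MM.1S and was 5.74 points higher in sgELL2 cells in INA-6. The 11-base DCAF11 exon was at 100 in all 6 INA-6 libraries. ELL2 exon 5 differed by -14 points in MM.1S and by -22.63 in INA-6.

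In MM.1S the sgELL2 events were also looked up in 4 other tables, none of which shares libraries with this one. With a guide against POU2AF1, a B cell coactivator, 262 events were listed in both tables and 187 had the same direction. Of 11 called events found, 6 were called there too (background 10.2%), all in the same direction: IGFLR1 (2 events), NUMB, SLC12A7, ZNF544 and MIB2. NUMB, an inhibitor of Notch signalling, differed by -11.34 points with sgELL2 and by -19.9 with sgPOU2AF1. With IL-6 against no IL-6, 375 events were in both tables and 201 had the same direction. Of 16 called events found, 13 were called with IL-6 (background 13.9%), 9 in the same direction and 4 in the opposite one. KANSL2 differed by -18.56 points with sgELL2 and by -23.21 with IL-6, and CDC25C by -12.32 and -15.51. XIAP and FAM86JP rose with sgELL2 and fell with IL-6, where they differed by -25.14 and -22.06 points. These tables list selected events only, so an event can be found there mainly when it passed the p threshold. The backgrounds cover events at all PSI levels. Of called sgELL2 events 89.0% had an sgEGFP PSI of 10 to 90%, against 42.9% of listed ones, and no background was matched for level.

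In the complete tables that selection is absent. With a guide against SRSF1, an SR protein, 15 of 174 called sgELL2 events found were also called, 8.62%, against 5.75% of all its events, 9 of them in the same direction. With a guide against HNRNPL, an RNA-binding splicing regulator, 14 of 183 were called, 7.65%, against 1.81% of all its events, 10 of them in the same direction. Of called sgELL2 events 89.0% had an sgEGFP PSI of 10 to 90%, against 33.0% of sgSRSF1 table events, and no test of these shares was made. The 2 complete tables share their sgEGFP group. SYNRG, a gene of vesicle traffic, kept a 303-base exon at 30.2% ± 3.7 in sgELL2 cells and 19.0% ± 0.44 in sgEGFP cells, at 40.5% ± 6.2 with sgSRSF1 and 51.4% ± 3.0 with sgHNRNPL, against 19.5% ± 5.4 in their sgEGFP group. The SKP2 event rose by 12.92 points with sgELL2 and by 12.77 with sgHNRNPL. The CENPE exon differed by -10.3 points with sgELL2 and by -28.02 with sgHNRNPL. A 27-base exon of the chromatin gene BAZ2B rose by 11.23 points with sgELL2 and by 28.05 with sgSRSF1. XIAP went the other way with sgSRSF1, falling by 50.51 points.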

How the data were processed

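Strand-specific mRNA libraries were aligned to GRCh38 with STAR 2.7.10b and handled with SAMtools 1.19.2, per the submitters' processing notes. Total RNA had been column-purified and treated with DNase, and libraries were made by 1 of 2 providers, per the labels. The sources used here do not name the splicing caller or its annotation. In percent, the authors' deposited tables hold, for each event, the PSI of 3 libraries per group, a score column with the difference of mean PSI, and a p-value. The deposited difference matched the listed PSI within 0.01 points in 2823 of 2823 events, and the deposited p-value matched a recomputed 2-sample value with unequal variances within 1% in 2823. It was treated as unadjusted. Libraries have no replicate number in the tables, read counts per event were not used because none are listed, and depth is therefore unknown; the spread between libraries is the only precision.

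Events were called at a deposited p under 0.05 and 10 points. In R 4.3.3, limma 3.58.1 took logit PSI, after clipping at 1 and 99%, over 2485 listed events that could be fitted. Adjusted over the listed events, it called 306 (12.3%), but that list is already selected on p, so adjustment was also made over 58062 events and with the prior spread of 50150 events of the complete sgSRSF1 table. The limma fit was also run on simulated events with the spread of the complete sgSRSF1 table. Those were not selected on p as the listed events are, so that run does not bear on calls within this list. Events were matched between tables by region, target and type. Coordinates are 1-based; 91.9% of listed single exons matched GENCODE release 29 exactly and 0% after a shift by 1 base. Sequences were read from its transcripts. Named are all ELL2 events, the 12 genes with the largest rise and fall among called events with all 6 values, called events of the gene lists and those in the INA-6 sgELL2 table, and the largest rise and fall per type; 1 of these genes is not reported here. Events set against the other sgEGFP group, and events shared with other tables, were chosen after their values were seen. Members, lists and tests were chosen with earlier results of these data known. Scripts ran under Python 3.11.15 with pandas 2.3.3, scipy 1.17.1, numpy 2.4.6 and, for plots, matplotlib 3.10.9.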

Additional observations from a re-analysis of the deposited data

Results flagged for a closer look

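In 6 called events the sgELL2 effect differed between MM.1S and INA-6 by the interaction term in limma, adjusted over 195 events of both tables. Those 195 were chosen for p under 0.05 in each line or, in INA-6, for having no p. Where the signs are opposite, that choice favours a small interaction p, so the adjusted p-values below describe a selected list. The DOK3 TSS|A3SS event (adjusted p = 0.000576) was 19.23 points higher in sgELL2 than in sgEGFP cells in MM.1S (2 libraries per group with a value) and differed by -4.51 in INA-6. The PCED1A alternative 3' splice site (adjusted p = 0.00163) differed by 32.09 and -6.98 points. The TAF1 acceptor (adjusted p = 0.00236) differed by -10.31 and 5.74 points. The 11-base DCAF11 exon (adjusted p = 0.00644) differed by 17.69 points in MM.1S and by 0 in INA-6, where all libraries were at 100. ELL2 exon 5 (adjusted p = 0.0136) differed by -14 and -22.63 points, the same direction in both. The MAP2K6 alternative 5' splice site (adjusted p = 0.033) differed by 46.92 and 9.55 points, from an sgEGFP level of 7.91% in MM.1S and 66.7% in INA-6.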

How the results depend on the processing

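Against 310 called events, 798 passed at 5 points, 48 at 20 points and 64 at p under 0.01. Adjusted by Benjamini-Hochberg over the complete number, 0 passed; limma on logit PSI left 9, limma on untransformed PSI 3, and limma borrowing the complete table's spread called 161 over the listed events and 2 over the complete number. Leaving out 1 library at a time, with p recomputed, gave 142 to 181 called events and a share of rises of 42.0 to 52.5%, against 48.1%. Of 63 named events 5 stayed called whichever library was left out. In 175 of 356 such fits the call was lost. In 0 the direction turned, which is fixed beforehand because the groups of called events do not overlap. In 152 of these 175 the difference stayed at 10 points or more. No paired analysis was possible because the PSI values carry no replicate number; deviations at the same listed position correlated at 0.07, 0.08 and -0.04. The same direction was shared by 78.5% of events found with sgELL2 in both lines, with overlapping entries each counted, and by 100% of the 8 called in both. Called events found in the sgSRSF1 table were called there in 17.9% at 5 points, against 9.69% of all its events, and in 0% of 16 at 20 points, against 2.01%. In the sgHNRNPL table they were called in 9.91% at 5 points, against 3.70%, and in 0% of 17 at 20 points, against 0.472%; at 20 points too few events were found to read a share. Limits were stricter or looser, or libraries fewer, by construction; no other cause was tested. The limma fits with the complete table's spread, the untransformed fit over the complete number, the count of distinct values, the count without ELL2 and the comparison with the other sgEGFP group were chosen after seeing the data.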
